A study of Homo sapiens with 18 samples.

Results

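The genes that encode the subunits, activators, inhibitor and assembly chaperones of the proteasome were followed in 2 human bladder cancer cell lines. They were taken from the table of genes by name, as every gene called PSMA to PSMG with a number and PSME1 to PSME4, with PSMB8 and PSMB9 left out, which gave 46 of the 39496 genes in the table. The lines, UM-UC-3 and T24, had been transfected with the control siNC, with siACAT1-1 or with siACAT1-2, the latter both directed against ACAT1, before their RNA was sequenced. Each of the 6 groups, cell line by siRNA, had 3 libraries labelled as biological replicates, and no other allele or agent is given beside the transfection itself. ACAT1 is a mitochondrial acetyl-CoA acetyltransferase, and the study asked what its loss changes in bladder cancer cells. UM-UC-3 cells were grown in MEM and T24 cells in RPMI-1640, so cell line and medium cannot be told apart, and each cell line is a single established line.

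The proteasome degrades proteins that carry ubiquitin chains. Its 20S core is a barrel of outer alpha rings and inner beta rings, with the proteolytic sites on PSMB5, PSMB6 and PSMB7, and the 19S cap is made of a base, whose ATPases unfold substrates, and a lid, which removes ubiquitin. Activators of the PSME family open the core without the lid and base, PSMF1 inhibits the core, and dedicated chaperones build both particles. In many cell types the subunit genes are raised together by the transcription factor NFE2L1 when proteasome activity falls.

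The libraries held 25163490 to 34417230 counted reads. ACAT1 was 46.0 ± 1.68 RPKM (reads per kilobase of exon, scaled to the depth of the library; SD, n = 3) with siNC in UM-UC-3 cells and 16.2 ± 1.40 RPKM (SD, n = 3) in T24 cells, and it lay between 0.671 and 3.59 RPKM in the 12 knockdown libraries. Of the 6 epithelial markers, the simple keratins KRT8 and KRT18 were at 27.8 RPKM or more in every library and KRT7 was 1.94 to 7.22 RPKM in UM-UC-3 and 81.1 to 371 RPKM in T24 cells. KRT19 and EPCAM reached at most 0.172 and 0.111 RPKM in UM-UC-3 cells, against 1.56 to 31.8 and 0.656 to 2.70 RPKM in T24 cells. CDH1 (E-cadherin) reached at most 0.0326 RPKM in any library. The 3 mesenchymal markers (VIM, CDH2 and ZEB1) together reached 161 to 357 RPKM per library. The 6 urothelial markers together reached 0.709 to 6.79 RPKM per library, so the urothelial origin on the labels is not carried by those genes. The 3 T24 libraries numbered 2 stood apart. Their Spearman correlation over 12165 genes was 0.983 to 0.987 among themselves and 0.912 to 0.948 with the other T24 libraries, and CD68, a lysosomal protein often used as a macrophage marker, was 121 to 169 RPKM in them against 15.7 to 41.5 RPKM in the other 6. CD68 was 126 to 216 RPKM in UM-UC-3 cells, and of the other 6 markers in that list PTPRC, CD3E and PECAM1 stayed under 0.1 RPKM in every library. COL1A1 was 0.929 to 1.62 RPKM and COL1A2 0.444 to 0.609 RPKM, and ACTA2 in T24 cells was 1.07 to 3.92 RPKM with siNC, 0.535 to 1.32 RPKM with siACAT1-1 and 0.537 to 1.02 RPKM with siACAT1-2. The summed list ranged from 19.7 to 124, 21.7 to 156 and 38.8 to 171 RPKM with siNC, siACAT1-1 and siACAT1-2 in T24 cells and from 128 to 219 RPKM in UM-UC-3 cells. The part of these differences in the results was not tested, and counts of called genes are given below also without those 3 libraries.

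Promoter sequences were taken from RefSeq (GRCh38.p14), as 250 bases before to 50 bases after the start of each gene, and 40 of the 46 genes had one. Both strands were searched for the antioxidant response element TGACNNNGC, the element through which NFE2L1 and NFE2L2 are known to act. It was found in 12 of the 40 promoters (30%), against 13.6% of all 27305 promoters. The CCAAT box (CCAAT) was in 18 of 40 (45.0%, against 35.7% of all), the nuclear respiratory factor 1 letters TGCGCANGC in 3 (7.5% against 4.63%) and the E-box CACGTG, bound by MYC and its relatives, in 3 (7.5% against 7.43%). These are matches of letters and not evidence of binding. The stretches below are those around the antioxidant response element in genes that differ between cell lines (PSMD5, PSMD12 and PSME1) or between siRNAs in the model with a block (PSMD12, PSMC4, PSMD3, PSME4 and PSME2). Each is 30 bases long and is written on the strand of its gene, with the match in capitals, which reads as the reverse complement in PSMC4 and PSME4.
PSMD5, chr9:120843038-120843067, minus strand: ctggctacagtTGACACGGCcctaacggag
PSMD12, chr17:67366724-67366753, minus strand: gagacaaaaccTGACGCTGCaggctggagt
PSME1, chr14:24136097-24136126, plus strand: catggcagggcTGACCCCGCctcctccatc
PSMC4, chr19:39971181-39971210, plus strand: cacagaggccgGCTTGGTCActatggagga
PSMD3, chr17:39980759-39980788, plus strand: ttcccctttgtTGACTCGGCcatcggcctg
PSME4, chr2:53971009-53971038, minus strand: gcccggcggctGCAGCGTCAccagcagagc
PSME2, chr14:24146767-24146796, minus strand: cccctggactgTGACCCAGCcagcaccgcc
The first 3 matches lie 130, 161 and 82 bases before the start of their genes. The match in PSMC4 lies 31 bases after the start, and those in PSMD3, PSME4 and PSME2 lie 33, 30 and 171 bases before it. PSMD3 held a second match, 37 bases after its start. The element was also found in PSMB3, PSMD1, PSMD9, PSMG1 and PSMG2, which were called neither between the cell lines nor between the siRNAs. Any link of the element to the calls was not tested.

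All but 2 of the 46 genes were expressed. PSMA8, the testis form of an alpha subunit, and PSMB11, the thymus form of a catalytic subunit, had 4 reads each in all 18 libraries together and were left out by the filter on low counts, so 44 genes were tested. Levels are compared between genes as RPKM, which divides by the length of all annotated exons of a gene, so a gene with long or rarely used exons reads low. PSMC3, a base ATPase, was highest, with a mean of 255 RPKM over all libraries (range 162 to 364). PSMA7, an alpha subunit, had 207 RPKM (147 to 291), and PSMD2, the large scaffold of the base, had 192 RPKM (102 to 302). At the other end, PSMG4, a chaperone of the core, had 1.05 RPKM (0.614 to 1.45), PSMB2, a beta subunit, 2.36 RPKM, and PSMG2, another core chaperone, 2.43 RPKM.
Subunits that stand in the core in equal number therefore differed widely in RPKM. In the alpha ring, group means were 5.15 to 6.11 RPKM for PSMA1, 8.68 to 12.6 for PSMA2, 13.3 to 15.8 for PSMA5, 21.6 to 32.0 for PSMA6, 27.8 to 34.6 for PSMA3 and 28.5 to 56.0 for PSMA4, below PSMA7. The ratio of the highest to the lowest mean over all libraries was 36.8 in the alpha ring and 41.3 in the beta ring. Among the structural beta subunits, PSMB4 had 11.5 to 16.2 RPKM, PSMB3 21.4 to 30.6 and PSMB1 23.2 to 34.4, against 1.93 to 2.53 for PSMB2.
The constitutive catalytic genes were all well expressed. PSMB5, the chymotrypsin-like subunit, had group means of 27.2 to 40.3 RPKM, PSMB6, the caspase-like subunit, 33.8 to 58.7, and PSMB7, the trypsin-like subunit, 53.0 to 149. PSMB10, which takes the place of PSMB7 in the immunoproteasome, was far lower at 2.54 to 4.06 RPKM, and its level is uncertain because 34.8% of its exon bases are shared with another gene on the same strand.
Of the base ATPases below PSMC3, PSMC1 had 59.7 to 96.9 RPKM, PSMC5 57.9 to 77.4, PSMC2 28.5 to 44.1, PSMC4 26.9 to 37.3 and PSMC6 9.32 to 13. The ubiquitin receptor PSMD4 had 84.6 to 99.9 RPKM and the scaffold PSMD1 29.2 to 42.6. In the lid, PSMD7 (103 to 172 RPKM) and PSMD8 (71.0 to 83.7) stood above PSMD13 (26.0 to 34.4), PSMD3 (21.3 to 28.6), PSMD12 (12.2 to 32.9), the deubiquitinase PSMD14 (9.83 to 21.1), PSMD6 (7.44 to 12.7) and PSMD11 (6.57 to 12). The activators spread from PSME1 (85.8 to 194 RPKM) over PSME2 (25.1 to 35.5) and PSME3 (17.3 to 39.0) to PSME4 (2.36 to 4.41), where PSME1 and PSME2 form a joint activator ring and PSME3 and PSME4 each form an activator of their own. The chaperones were low, with PSMG1 at 10.8 to 13.9 RPKM, PSMG3 at 6.51 to 11.1 and PSMG2 at 1.97 to 2.67 for the core, and PSMD10 at 8.69 to 21.5, PSMD9 at 6.69 to 9.26 and PSMD5 at 1.94 to 4.76 for the base. Within a group, the coefficient of variation of these 44 genes had a median of 12.1%, against 17.4% over the 12165 genes with a mean count above 100. These sets were not matched for count.

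**Figure D1:**
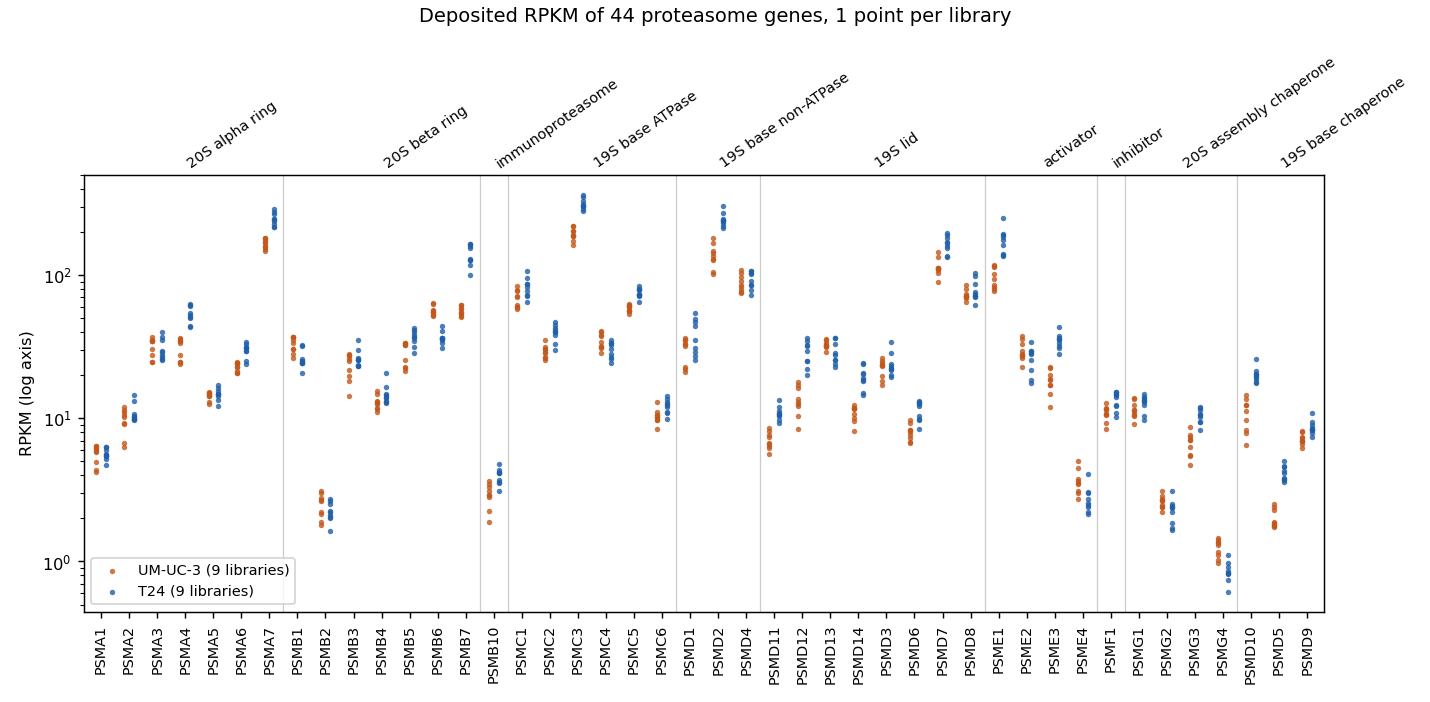
Deposited RPKM (log axis) of the 44 expressed proteasome genes, ordered by role, with 1 point per library in UM-UC-3 (orange) and T24 (blue) cells. Genes of the same particle spread over more than a factor of 10. PSMB7 and PSMD5 are among several genes without overlap between the cell lines, as are PSMC3, PSMD2, PSMA7 and PSMB6. The share of all genes without overlap was not counted.

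Reads could be shared with other genes in some cases. The strand setting of the counting is not given in the sources used here, and 11 genes share more than 10% of their exon bases with another gene in the table. PSMC1 shares 75.8% with NRDE2 on the opposite strand, PSMD7 shares 30.7% with AC009120.6 on the opposite strand, and PSMA1 shares 24.7% with RP11-140L24.4 on the same strand. PSMC1 also has 10 pseudogenes in the table, whose summed mean count was 3.82% of its own, the highest share among the 8 genes with named pseudogenes. Values of these genes are uncertain to that extent.

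The control libraries of the cell lines were compared first, to see how the particle differs before any knockdown. By edgeR's quasi-likelihood test, with p-values adjusted after Benjamini and Hochberg, 17 of the 44 genes were called at an adjusted p under 0.05, 3 higher in UM-UC-3 cells and 14 lower, while 44.3% of all 20144 genes tested were called, so the share of 38.6% is near the background. The median log2 fold change was -0.12, against 0.030 over all genes. With the 3 T24 libraries numbered 2 left out, 16 genes were called.
The catalytic subunits differed in opposite directions. PSMB6 was 64.2, 53.6 and 55.7 RPKM in the UM-UC-3 siNC libraries and 30.9, 33.8 and 36.6 RPKM in the T24 siNC libraries. It was 57.8 ± 5.61 against 33.8 ± 2.83 RPKM (SD, n = 3), without overlap (log2 fold change 0.82, standard error 0.15, adjusted p = 3.2e-04). PSMB7 was 55.7, 59.4 and 52.2 RPKM against 100.4, 160 and 117 RPKM. That is 55.8 ± 3.59 against 126 ± 31.0 RPKM (SD, n = 3), again without overlap, with the reverse sign (log2 fold change -1.12, standard error 0.15, adjusted p = 2.1e-05), and the T24 library numbered 2 was the highest. PSMB5 did not pass the test. Its values of 32.4, 33.0 and 22.5 RPKM in UM-UC-3 and 31.3, 34.9 and 28.7 RPKM in T24 cells overlapped (log2 fold change -0.061, standard error 0.21, adjusted p = 0.841). PSMB10 was 2.26, 3.11 and 3.30 RPKM against 3.70, 4.35 and 4.14 RPKM (log2 fold change -0.44, standard error 0.23, adjusted p = 0.123). Of the other beta subunits only PSMB1 was called, at 37.0, 35.4 and 30.7 RPKM against 20.9, 24.5 and 24.3 RPKM (0.62, standard error 0.18, adjusted p = 0.0093). In the alpha ring PSMA7 was lower in UM-UC-3 cells, at 169, 182 and 147 RPKM against 238, 219 and 246 RPKM (-0.45, standard error 0.17, adjusted p = 0.0376), as was PSMA4 (-0.67).
The cap was lower in UM-UC-3 cells wherever it was called. Of the 8 lid genes 4 passed, all lower, and of the 9 base subunits PSMC3 (-0.69) and PSMD2 (-0.73) passed. PSMD12, a lid scaffold, was 12.2, 17 and 8.44 RPKM in UM-UC-3 and 25, 35 and 20.1 RPKM in T24 cells. Both groups were wide but did not overlap (log2 fold change -1.03, standard error 0.25, adjusted p = 0.0028). The other lid genes called were PSMD14 (-0.72), PSMD11 (-0.58) and PSMD7 (-0.54). Among the activators, PSME1 was 82.6, 80.0 and 101 RPKM against 162, 140 and 191 RPKM (-0.86, standard error 0.21, adjusted p = 0.00305), and PSME3 was lower as well (-0.77), while PSME2, the partner of PSME1, did not pass (0.16, adjusted p = 0.594). The inhibitor PSMF1 did not pass (-0.26, standard error 0.13, adjusted p = 0.113).
Chaperones were called in both directions. PSMG4 was 1.36, 1.30 and 1.35 RPKM in UM-UC-3 against 0.745, 0.817 and 1.11 RPKM in T24 cells (0.64, standard error 0.18, adjusted p = 0.0082), while PSMG3 was lower (-0.66). PSMD5, a base chaperone, was 1.89, 2.54 and 1.78 RPKM against 4.16, 4.28 and 3.69 RPKM (-0.92, standard error 0.18, adjusted p = 5.9e-04), and PSMD10 was lower (-0.59).

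**Figure D2:**
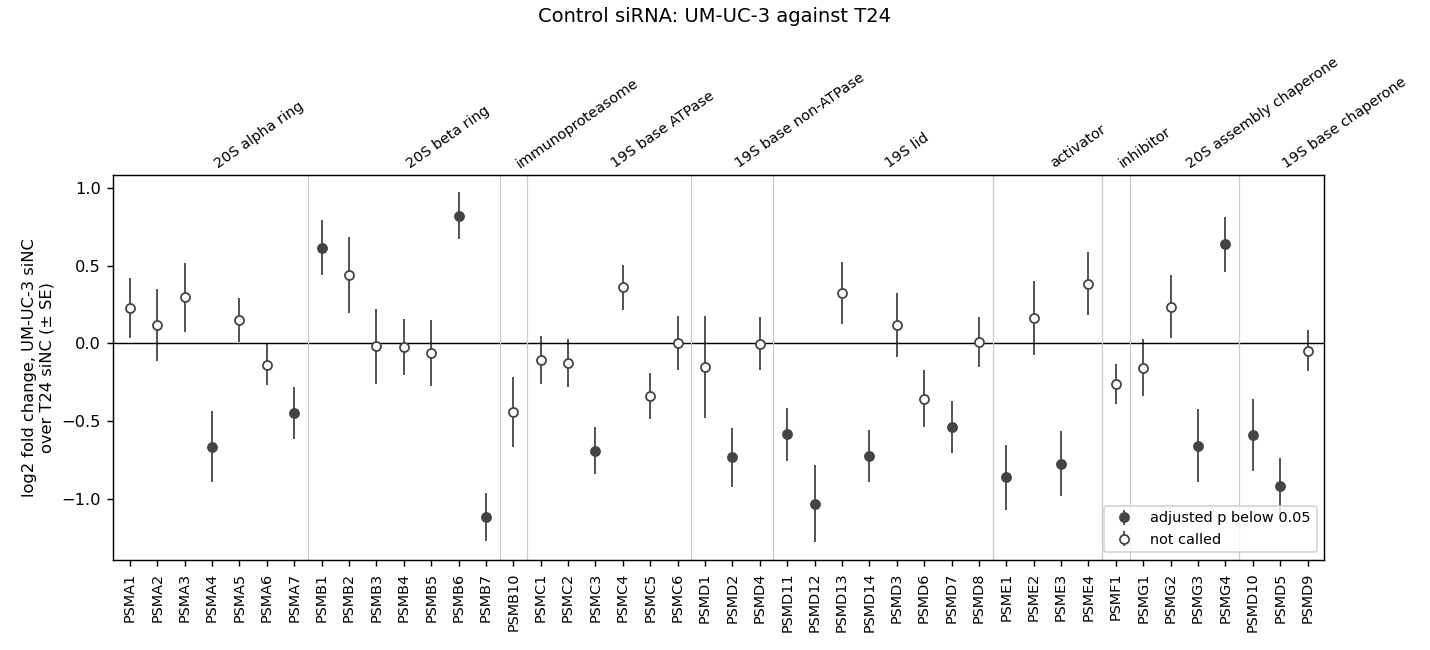
Log2 fold change of UM-UC-3 siNC over T24 siNC (± standard error, 3 libraries a group) for 44 proteasome genes by role, filled where the adjusted p was under 0.05. The filled points above 0 are PSMB6, PSMG4 and PSMB1, and PSMB7 is the lowest.

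The genes that differed most between the cell lines did not all sit in regions that differed. PSMB7 (chr9:124353466-124415444, GRCh38, minus strand) and PSMD5 (chr9:120815496-120842984, minus strand) lie on the same chromosome arm. The 29 other tested genes within 2 Mb of PSMB7 had a median of -0.65 in this comparison, on the log2 scale, with 75.9% of them below 0, and the 27 around PSMD5 had -1.11, with 92.6% below 0. Around PSMD14 on chromosome 2 the median of 15 neighbours was -0.99, and around PSMB1 on chromosome 6 and PSMB6 on chromosome 17 it was 0.55 and 0.47, so these 5 genes had the sign of their neighbourhood. PSMD12 on chromosome 17, PSMC3 on chromosome 11 and PSMD2 on chromosome 3 had neighbours with medians of 0.11, 0.27 and 0.25, opposite in sign to the genes themselves. Of the 17 genes called, 13 had the sign of their neighbours' median. The same share among all genes called was not counted, so 13 of 17 has no background here. Copy number was not measured here.

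Knockdown of ACAT1 was then compared with siNC, by averaging the 4 contrasts of siACAT1-1 or siACAT1-2 over siNC within a cell line. No proteasome gene was called by edgeR (0 of 44, with 1 at an unadjusted p under 0.05; 0 by DESeq2 and 0 by limma), against 0.223% of all genes tested. The fold changes were small, between -0.15 and 0.25 on the log2 scale, with a median of 0.057 and 27 of 44 above 0, against a median of -0.0013 over all genes. With the replicate number as a block within cell line, 1 gene was called, against 12.4% of all genes. That gene was PSMD14, the deubiquitinase of the lid. In UM-UC-3 cells PSMD14 had 9.56, 11.7 and 8.18 RPKM with siNC, 11.8, 11.9 and 12.4 RPKM with siACAT1-1 and 10.1, 10.7 and 11.6 RPKM with siACAT1-2. T24 cells had 15.1, 20.8 and 14.6 RPKM with siNC, 20.4, 23.9 and 19 RPKM with siACAT1-1 and 18.2, 24.6 and 18.7 RPKM with siACAT1-2. In T24 cells the library numbered 2 was the highest of each group, and within each number both siRNAs were above siNC, while in UM-UC-3 cells this did not hold for siACAT1-2 at number 2. PSMD14 rose by 0.26 on the log2 scale with the block (standard error 0.070, adjusted p = 0.0181), and its value without it was 0.25 (standard error 0.10, adjusted p = 0.368).
By role, all 7 beta ring genes, all 4 activators and 7 of 8 lid genes had values above 0, with medians of 0.090, 0.15 and 0.13. All 4 core chaperones and 5 of 6 base ATPases had values below 0, with medians of -0.12 and -0.039. None of these genes passed without the block, so the signs are a description. Next to PSMD14 the highest were PSME3 (0.18, standard error 0.13, adjusted p = 0.655) and PSMD7 (0.17, standard error 0.10, adjusted p = 0.598). The lowest were PSMG1 (-0.15, standard error 0.11, adjusted p = 0.675), PSMG4 (-0.14, standard error 0.11, adjusted p = 0.712) and PSMG3 (-0.10, standard error 0.14, adjusted p = 0.872). With 1 library left out, PSME3 ranged from 0.075 to 0.31, PSMD7 from 0.11 to 0.25, PSMG1 from -0.19 to -0.091, PSMG4 from -0.18 to -0.055 and PSMG3 from -0.21 to 0.0074, while PSMD14 ranged from 0.19 to 0.33.
PSMG1 shows how these means arose. In UM-UC-3 cells it was 10.9, 14 and 11.4 RPKM with siNC, 10.4, 11.5 and 13.7 RPKM with siACAT1-1 and 9.18, 10.6 and 12.5 RPKM with siACAT1-2, and it was 14.8, 13.8 and 13.1, then 12.9, 12.4 and 9.69, then 13.5, 14.1 and 10.5 RPKM in T24 cells. In every group but siACAT1-1 in T24 cells the values overlapped those of siNC.
The catalytic genes gave 0.13 for PSMB5 (adjusted p = 0.791), 0.066 for PSMB6 (0.873), 0.11 for PSMB7 (0.735) and -0.021 for PSMB10 (1.00) in the same test.

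Taken by cell line and siRNA, no comparison with siNC called a proteasome gene in edgeR. For UM-UC-3 with siACAT1-1, 0 of 44 were called against 0.00993% of all genes (0 at an unadjusted p under 0.05), and with siACAT1-2 0 against 0.0546% (1 at an unadjusted p under 0.05). In T24 cells siACAT1-1 called 0 against 0.124% (4 at an unadjusted p under 0.05) and siACAT1-2 called 0 against 0.268% (0 at an unadjusted p under 0.05). At an unadjusted p under 0.05, 5.34%, 3.86%, 11.5% and 8.44% of all genes passed in the same order. DESeq2 called 0 in each of these 4 as well, against 0.0894%, 0.184%, 1.89% and 1.21% of all genes. Limma also called 0 in each, against 0.0199%, 0.0695%, 0.452% and 0.437%. Without the T24 libraries numbered 2, edgeR called 0. The block changed the counts to 2 genes (4.55%) against 3.06% of all, 0 against 1.36%, 7 (15.9%) against 13.9% and 0 against 8.48% in the same order. The counts of 2 and 7 are thus near the background.
The 7 genes of T24 cells with siACAT1-1 were all higher and came from the cap and the activators, namely PSMD3 (0.38, adjusted p = 0.0155 with the block), PSMC2 (0.37, 0.0200), PSME4 (0.36, 0.0377), PSME3 (0.36, 0.0384), PSMD14 (0.35, 0.0457), PSMD1 (0.32, 0.0441) and PSMD2 (0.28, 0.0494). The alpha and beta rings, without a call, had medians of 0.25 and 0.27 there. The lid had 0.26 and the activators 0.29, so the roles of the called genes do not set them apart. For UM-UC-3 with siACAT1-1 the block called PSME4 higher (0.42, adjusted p = 0.0438) and PSMD10, the base chaperone also known as gankyrin, lower (-0.50, adjusted p = 0.0359).
The cell lines leaned apart without passing a test of the difference. Over the 44 genes UM-UC-3 cells had median log2 fold changes of -0.052 (siACAT1-1) and -0.071 (siACAT1-2), and T24 cells had 0.22 and 0.14, when the medians over all genes lay between -0.0099 and 0.010. With both siRNAs together, all 7 alpha genes were below 0 in UM-UC-3 cells (median -0.11) and all 7 above 0 in T24 cells (median 0.21), and all 7 beta genes were above 0 in T24 cells (median 0.22) with 6 of 7 below 0 in UM-UC-3 cells (median -0.072). The core chaperones were below 0 in both lines (4 of 4 each). The difference of the knockdown effect, UM-UC-3 minus T24, had a median of -0.19 with 35 of 44 genes below 0. Limma and edgeR each called 0 of 44, against 0% of all genes, and DESeq2 called 0, against 0.00496%. At an unadjusted p under 0.05 edgeR had 1 of 44, against 2.57% of all genes. With the block it also called 0 of 44, against 0.104% of all genes. At an unadjusted p under 0.05 there were 12 of 44 with the block, against 1905 of 20144 genes (9.46%), so the share was above that of all genes. The 44 genes moved together between libraries, as given below, so this count is a description. PSMB5 was among those that leaned furthest apart, with 25.5, 33.4 and 22.8 RPKM for siACAT1-1 and 32.5, 33.8 and 21.5 RPKM for siACAT1-2 in the UM-UC-3 line, and 40.2, 38.2 and 42.6, then 41.5, 36.3 and 37.1 RPKM in T24 cells. In T24 cells every knockdown library was above every siNC library, and in UM-UC-3 cells the groups overlapped. The difference for PSMB5 was -0.41 (standard error 0.26, adjusted p of 1.00 without and 0.375 with the block).
Single libraries moved the whole set. The median of the 44 genes relative to the mean of their own group was -0.23, -0.070 and -0.13 in the UM-UC-3 libraries numbered 3 of siNC, siACAT1-1 and siACAT1-2, and 0.17, 0.11 and 0.088 in those numbered 2. In T24 cells the libraries numbered 1 were above their group means (0.10, 0.048 and 0.15) and those numbered 2 below (-0.017, -0.13 and -0.082). The spread of these medians within groups was 0.13 (SD), against medians of -0.071 to 0.22 in the comparisons with siNC.

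**Figure D3:**
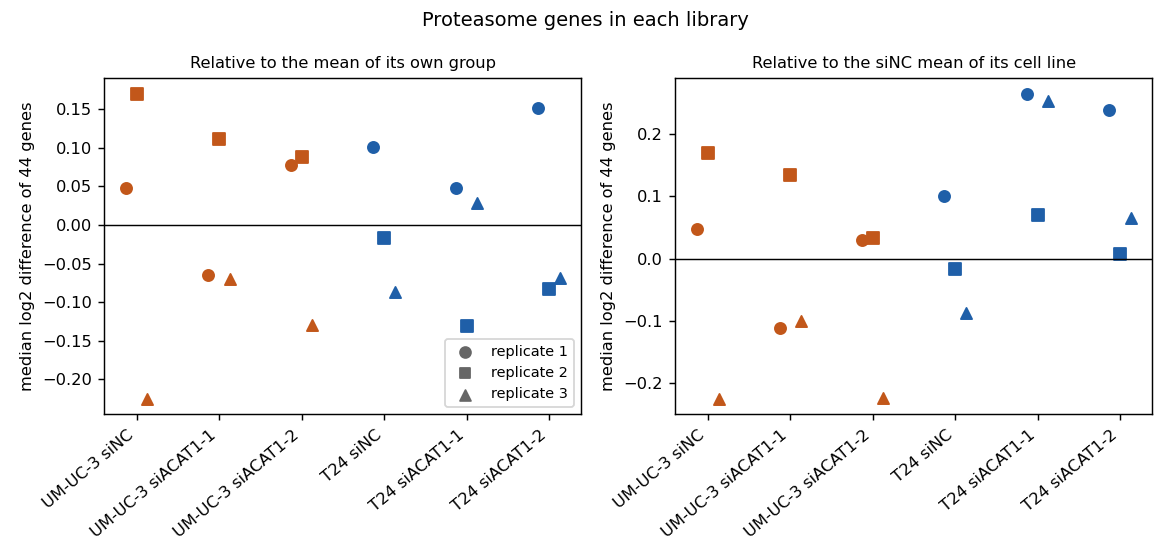
Median log2 difference of 44 proteasome genes in each of 18 libraries, relative to the mean of its own group (left) and to the siNC mean of its cell line (right), with the replicate number as the symbol. In UM-UC-3 cells the libraries numbered 3 lie lowest in each group on the left. On the right all 6 T24 knockdown libraries lie above 0, the lowest at 0.0079 (siACAT1-2, number 2). The T24 siNC library numbered 1 lies at 0.10, above some of them.

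The siRNAs were compared with each other, as siACAT1-2 against siACAT1-1 over both cell lines, to separate what they share from what differs. PSMF1 was the only proteasome gene called without the block (1 of 44, or 2.27%), and 2.56% of all genes were called, so this count is near the background. PSMF1 (chr20:1113263-1189415, GRCh38, plus strand) encodes the inhibitor of the 20S core known as PI31. In UM-UC-3 cells it was 8.40, 9.35 and 10.7 RPKM with siACAT1-1 and 11.5, 11.5 and 12.8 RPKM with siACAT1-2, where siNC gave 10.7, 10.5 and 11.8 RPKM. In T24 cells it was 10.9, 12.2 and 10.2 RPKM with siACAT1-1 and 15.4, 15.3 and 14.9 RPKM with siACAT1-2, where siNC gave 12.3, 14.6 and 14.1 RPKM. The siRNAs did not overlap in either line, and siNC lay between them in the group means. PSMF1 was higher with siACAT1-2 by 0.38 on the log2 scale (standard error 0.092, adjusted p = 0.0364, and 0.0012 with the block). Against siNC, PSMF1 gave -0.22 and -0.28 (siACAT1-1, UM-UC-3 and T24) and 0.076 and 0.18 (siACAT1-2), and none of these passed. The mean of the 4 was -0.062 (standard error 0.079, adjusted p = 0.854), the 2 siRNAs having opposite signs. The call was lost when any of 11 of the 18 libraries was left out, namely UM-UC-3 siNC 1, siACAT1-1 1 and 2 and siACAT1-2 1, 2 and 3, and T24 siNC 3, siACAT1-1 1 and 3 and siACAT1-2 1 and 3 (group, then number), with 0 genes called in each. PSMC1 was called as well without UM-UC-3 siNC 2 or 3 (2 genes), and PSMC1 and PSME4 without T24 siACAT1-1 2 (3 genes). Without the UM-UC-3 libraries numbered 3 none was called, whereas without the T24 libraries numbered 2 PSMF1, PSMC1 and PSME4 were called.
With the block, 10 of 44 genes (22.7%) were called, 2 higher with siACAT1-2 and 8 lower. Of all genes 20.6% were called, so this count is near the background too. The 8 lower genes came from the cap and the activators and none from the core, which is a description. PSME4, the activator PA200, in UM-UC-3 cells was 5.01, 3.76 and 4.47 RPKM with siACAT1-1 and 3.46, 2.72 and 3.51 RPKM with siACAT1-2, and in T24 cells 4.11, 2.73 and 3.04 against 2.55, 2.14 and 2.40 RPKM. In siNC libraries it was 3.68, 3.13 and 3.02 RPKM in UM-UC-3 and 3.03, 2.21 and 2.48 RPKM in T24 cells, so siACAT1-1 stood above siNC in each pair of libraries with the same number. The difference was -0.48 (standard error 0.14, adjusted p = 0.0843) without and -0.47 (standard error 0.079, adjusted p = 3.5e-04) with the block. PSMC1, a base ATPase, in UM-UC-3 cells was 78.2, 78.7 and 70.4 RPKM with siACAT1-1 and 60.4, 60.4 and 58.4 RPKM with siACAT1-2, and in T24 cells 108, 86.6 and 96.2 against 71.1, 77.3 and 65.4 RPKM. Its siRNAs did not overlap in either line, with siNC at 71.4, 83.9 and 62.4 and at 82.4, 86.4 and 73.1 RPKM, and the difference was -0.41 (standard error 0.11, adjusted p = 0.0513, and 6.2e-04 with the block). Since most of PSMC1's exon bases overlap NRDE2, its value is uncertain.
The other genes called with the block were PSMD12 (-0.36), PSMC4 (-0.33), PSMD2 (-0.29), PSMD6 (-0.24), PSMD11 (-0.24) and PSMD3 (-0.22), all lower with siACAT1-2, and PSME2 (0.26), which was higher. By role, without the block, 5 of 6 base ATPases and 7 of 8 lid genes were below 0 (medians of -0.18 each), while the alpha and beta rings had medians of 0.018 and 0.0019.

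**Figure D4:**
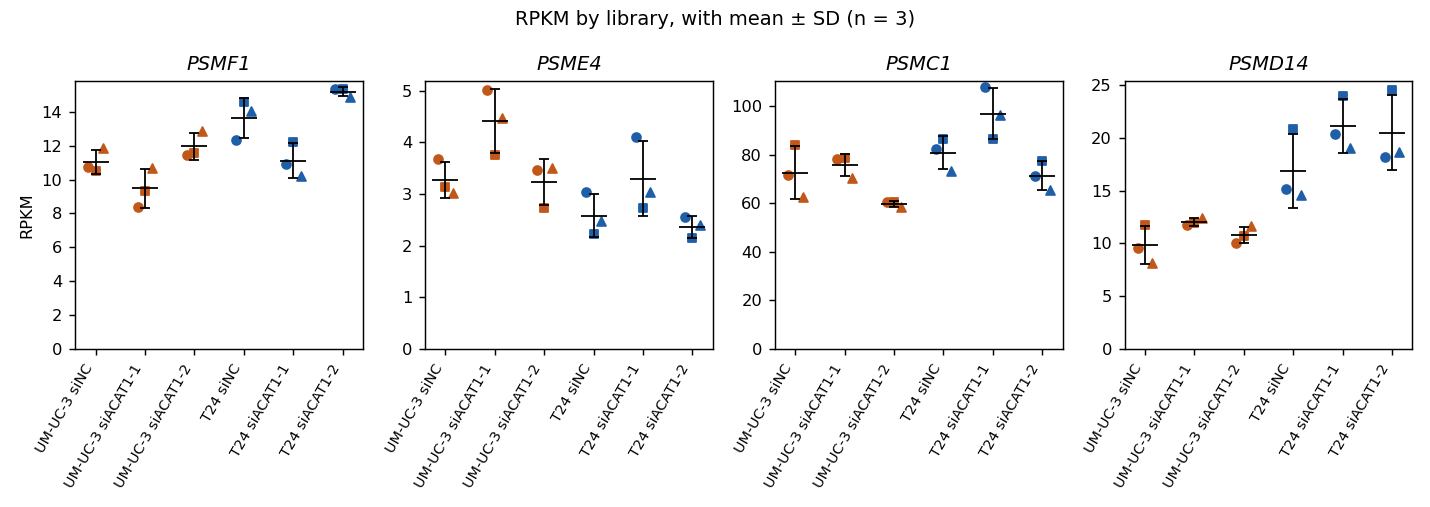
RPKM of PSMF1, PSME4, PSMC1 and PSMD14 in each library, with the mean ± SD of 3 libraries per group as a bar and the replicate number as the symbol (circle 1, square 2, triangle 3). PSMF1 is lowest and PSME4 highest with siACAT1-1 in both cell lines.

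The genes moved together between libraries of the same group. Deviations of log2 CPM from the group means over the 18 libraries had a median pairwise Pearson correlation of 0.37 among the 44 genes, 0.53 among the 31 subunits of the core and cap and 0.66 among the 14 alpha and beta genes, against 0.0014 for every 20th gene tested (1008 genes). The libraries share cell line and replicate number, so these values are a description. The 1008 genes were not matched to the 44 for expression level. PSMG3, a core chaperone, followed the median of the core and cap subunits most closely (r = 0.97), followed by PSMA4 (0.93), PSMA3 (0.92), PSMB5 (0.92) and PSMD2 (0.91). The lowest correlations among core and cap subunits were those of PSMD4 (-0.43), PSMD8 (-0.35), PSMD7 (0.026), PSMB7 (0.088) and PSMD14 (0.19). Among the other genes they were those of PSMG4 (-0.26), PSMF1 (-0.23), PSMG2 (-0.21), PSMD9 (0.022), PSMB10 (0.15), PSMG1 (0.17) and PSME1 (0.18). A subunit and its partner could thus differ, as the lid genes PSMD7 and PSMD8 did from PSMD3 (0.81).

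**Figure D5:**
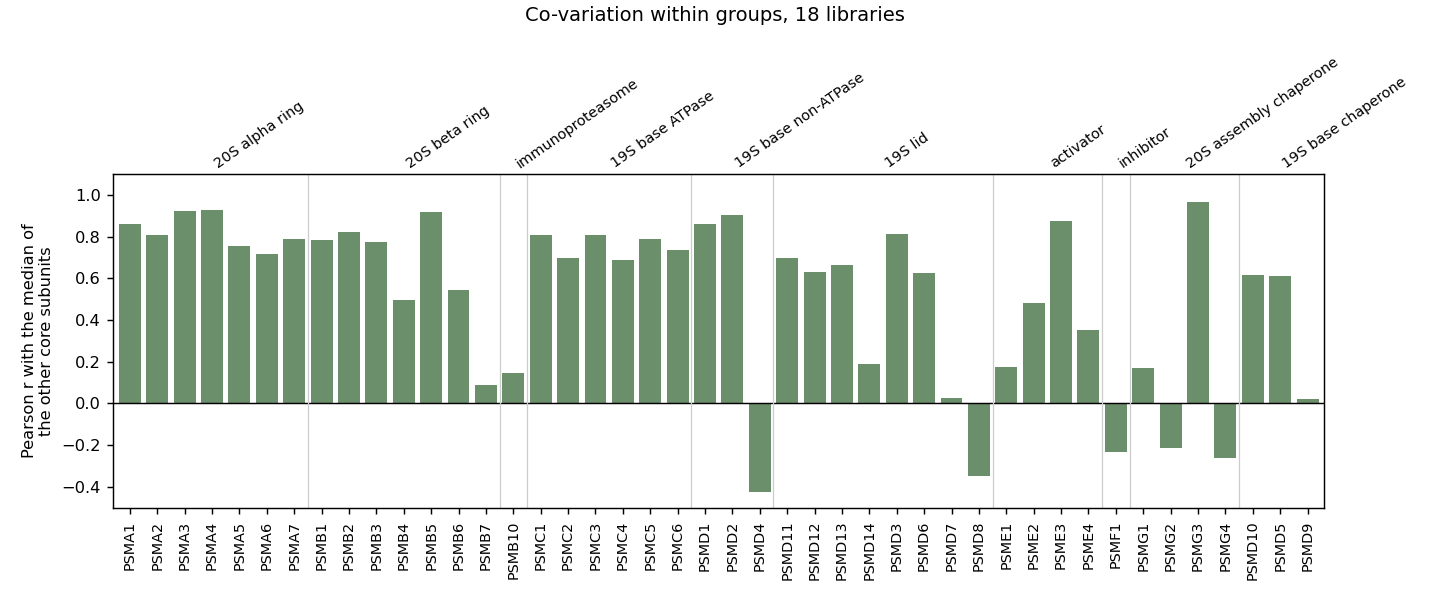
Pearson correlation, over 18 libraries, of each gene's deviation from its group mean (log2 CPM) with the median deviation of the core and cap subunits, the gene itself left out. Most alpha, beta and ATPase genes lie above 0.6, and PSMD4, PSMD8, PSMG4, PSMF1 and PSMG2 lie below 0.

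Other genes of the pathway were followed as lists. Of 8 genes that control proteasome genes, 0 were called over the 4 knockdown comparisons (0 at an unadjusted p under 0.05, median 0.091), and 2 were called higher with the block. Of all genes there, 0.223% were called without and 12.4% with the block. Without the block 10.9% of all genes had an unadjusted p under 0.05. NFE2L1 was 47.1, 44.3 and 81.1 RPKM with siNC in UM-UC-3 cells and 54.2, 184 and 109 RPKM in T24 cells. Its knockdown change was 0.20 (standard error 0.26, adjusted p = 0.862), and the T24 libraries numbered 2, with 184 to 250.4 RPKM, and the UM-UC-3 libraries numbered 3, with 75.5 to 88.4 RPKM, were the highest of their groups. In all 6 of these libraries the median of the 44 proteasome genes lay below the group mean, as it also did in UM-UC-3 siACAT1-1 1 and in T24 siNC 3 and siACAT1-2 3, which were not the highest for NFE2L1. Of 11 partners of the proteasome, 0 were called (1 at an unadjusted p under 0.05, median 0.12) and 2 higher with the block. Of 14 genes of ubiquitin and shuttling, 0 were called (0 at an unadjusted p under 0.05, median 0.078) and 1 higher with the block. These counts too stand against 12.4% of all genes with the block. Between the siNC groups, 4 of the 11 partners were lower in UM-UC-3 cells, among them POMP, the maturation protein of the core (-0.86, adjusted p = 0.0023), and ADRM1, a ubiquitin receptor (-0.84, adjusted p = 4.3e-04). Of the ubiquitin and shuttling genes 2 were higher and 7 lower there, and of the 8 control genes 2 were higher and 2 lower, against 44.3% of all genes called in that comparison.
The interferon genes were followed because interferon exchanges catalytic subunits for PSMB8, PSMB9 and PSMB10. Of 16 genes, 1 was called higher over the 4 knockdown comparisons (6 with the block), with a median of 0.33, against 0.223% of all genes called without and 12.4% with the block. PSMB8 and PSMB9, which the naming rule leaves out, were not called (0.057, adjusted p = 0.961, and -0.053, adjusted p = 0.980), and neither was PSMB10. For UM-UC-3 with siACAT1-2 the median of the interferon genes was 0.85, with 1 called higher, and PSMB10 was 2.89, 3.67 and 3.50 RPKM there against 2.26, 3.11 and 3.30 RPKM with siNC (0.17, standard error 0.23, adjusted p = 1.00). Between the siNC groups 11 of the 16 were lower in UM-UC-3 cells (median -1.72), where 44.3% of all genes were called in either direction.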

How the data were processed

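RNA was measured in 18 libraries. Per the labels, the authors prepared stranded mRNA libraries with molecular identifiers, and processed reads with Trimmomatic 0.36, STAR 2.5.3 (GRCh38) and featureCounts (Subread 1.5.1). They deposited raw counts per gene and RPKM calculated from them. The annotation release, strand setting, handling of reads with several positions and use of identifiers are not given in the sources used here.

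Counts were tested with edgeR 4.0.16 in R 4.3.3 (TMM, filterByExpr by group, quasi-likelihood test, 1 model of 6 groups, Benjamini-Hochberg adjustment over all 20144 genes tested, call at an adjusted p under 0.05). Alternatives were DESeq2 1.42.0, limma 3.58.1 on log2(RPKM + 1), DESeq2 size factors, no filter, 1 cell line alone, each library left out, and a block for the replicate number. The scripts were tested on simulated data. Within a cell line, same-numbered libraries deviated together across genes (r 0.115 to 0.576 in UM-UC-3, 0.356 to 0.686 in T24), and this pairing rests on the values, since no source says what a number marks. If libraries of a group shared a culture, p-values measure technical spread only. Promoters and gene positions use GRCh38, and the 43 windows found equal the genome.

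The genes were chosen by name, and genes, lists and rules were chosen with earlier results of these data known. Values in full were given for genes called (the 4 highest and 4 lowest where over 8 were called), the 3 highest and lowest of the knockdown and of the levels, and the catalytic genes. PSME4 and PSMC1 were added after their values were seen. The lists were epithelial, urothelial, mesenchymal and other cell type markers, control genes, partners, ubiquitin and shuttling genes, and interferon genes. Over the 4 knockdown comparisons 0 markers of the first 4 lists were called, against 0.223% of all genes. Medians were -0.24 (epithelial), -0.11 (urothelial), -0.13 (mesenchymal) and 0.080 (other cell types), with 0, 0, 0 and 2 at an unadjusted p under 0.05. With the block 3 of 5 epithelial and 1 of 3 mesenchymal markers tested were lower. Of 5 other cell type markers tested 1 was higher and 1 lower. The block called 12.4% of all genes there.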

Additional observations from a re-analysis of the deposited data

How the results depend on the processing

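Calls were few and rest on 3 libraries per group. Over all 18 libraries, the replicate block moved the count of called genes from 0 to 1 over the 4 knockdown comparisons. The count moved from 0 to 2 for UM-UC-3 siACAT1-1 and from 0 to 7 for T24 siACAT1-1. In the same order, the block called 2.27%, 4.55% and 15.9% of the 44 genes, against 12.4%, 3.06% and 13.9% of all genes. It changed no call with siACAT1-2 against siNC or in the difference between the cell lines. For siACAT1-2 against siACAT1-1 the count of 1 (2.27%, against 2.56% of all genes) became 10 with the block (22.7% against 20.6%). The count was 4 with DESeq2 (9.09% against 6.14%) and 2 with limma (4.55% against 3.07%). With DESeq2 size factors it was 2, without the filter 0, and 0 to 3 when 1 library was left out. The share of all genes is not given here for these last settings. After seeing the data, the T24 libraries numbered 2 were left out (3) and the UM-UC-3 libraries numbered 3 (0). The count between the siNC groups, 17 (38.6%, against 44.3% of all genes), was 28 over all 3 siRNAs (63.6%, against 66.1%). Both shares are near the background. With 1 library left out the count was 13 to 18. PSMG3 turned from -0.10 to 0.0074 without UM-UC-3 siNC replicate 2 (range -0.21 to 0.0074). The median of the 44 genes stayed between 0.011 and 0.090 with 1 library left out. In RPKM 30 of the 44 tested genes had a lower mean in UM-UC-3 siNC than in T24 siNC, and 28 in CPM with TMM factors. The causes were not tested. UMI use is unknown, so counts may hold PCR copies.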
